A study of Arabidopsis thaliana with 22 samples.

Results

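The 28 genes described here are those with the strongest repression by continuous red light in wild-type Arabidopsis seedlings. They were selected on these measured wild-type intensities. A gene was taken when its probe set was assigned to a single gene, when the mean log2 intensity of the wild-type red-light arrays lay 2.5 or more below the mean of wild-type dark arrays 2 to 4, and when both red-light arrays lay below all 3 of those dark arrays. Of 22746 probe sets tested, 13513 carried a single gene name, and 34 of these met both conditions. OLEO3, TUB1, PME61, ATPMEPCRD, GH9B8 and IAA29 are among the 34 and are not described here, which leaves the 28. A further 45 probe sets with the same behaviour carried no gene name or several, and they are not analysed here.

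The study measured whole 4-day-old Arabidopsis thaliana seedlings of the Landsberg erecta (Ler) background on 22 Affymetrix arrays. The phyABDE quadruple mutant, which lacks phytochromes A, B, D and E and keeps phytochrome C, was sampled after 4 days of constant red light (R50, named for its 50 µmol m-2 s-1, 3 arrays), after 4 days of darkness followed by 2 h of red light (DR2h, 2 arrays) and after 4 days of darkness (3 arrays). The phyABCDE quintuple mutant, which lacks all phytochromes of the plant, was sampled in the same conditions with 3, 2 and 3 arrays. Wild type was sampled under R50 (2 arrays) and in darkness (4 arrays). Seeds of every group were kept cold in the dark and given 3 h of white light before the treatments began, so the dark seedlings had also seen light once. The titles number the arrays as biological replicates, but no source says that the seedlings came from separate cultures, and p-values measure only the spread between these samples. The probe sets of the phytochrome genes were not analysed here, so the genotype labels were not checked against the data.

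Phytochromes are photoreceptors that red light converts to their active form, which enters the nucleus and leads to the breakdown of the PIF transcription factors. In darkness the PIFs hold the seedling in the etiolated state, with a long hypocotyl, a closed apical hook and unopened cotyledons, and they keep up the expression of many genes of cell elongation. Red light ends that state and lowers the transcripts of such genes. Whole-seedling RNA was measured, so fewer cells of a type and less RNA per cell cannot be told apart.

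Of the 28 genes, 4 have a symbol in the annotation used here. SWEET3 belongs to the SWEET family of sugar transporters. GH9B13 belongs to glycosyl hydrolase family 9, a family of endoglucanases that act on cell wall glucans. MGL is methionine gamma-lyase, an enzyme that cleaves methionine. EXLA2 is expansin-like A2, a relative of the expansins, which loosen cell walls. The other 24 genes are listed as protein-coding under a locus code, with no name or function in that annotation, and are given here by locus only.

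By the series text the arrays were not all labelled in the same way, and this bears on every comparison with wild type. The series text names the One-cycle kit for wild-type dark arrays 2 to 4 and both wild-type R50 arrays. It names the 3' IVT Express kit for the remaining 17, wild-type dark array 1 among them. Arrays of the same group and kit correlated at 0.987 to 0.995 across probe sets, while wild-type dark array 1 correlated at 0.978 to 0.982 with dark arrays 2 to 4. Replicate 1 of phyABDE also stood apart. The mean log2 level of 12 seed maturation genes was 5.85, 8.06 and 7.64 on the phyABDE R50 arrays and 6.31, 8.74 and 7.74 on the phyABDE dark arrays, so replicate 1 was lowest in both conditions. The same genes read 8.46 to 8.89 on the phyABCDE R50 arrays and 8.96 to 9.42 on the phyABCDE dark arrays, against 5.82 to 6.07 on the wild-type R50 arrays and 4.47 to 5.89 on the wild-type dark arrays. None of the 12 is among the 28 genes, but OLEO3, which met the same rule and was left out by name, is among the 12. OLEO3 changed by -5.06 in wild type under R50, which lowers the wild-type R50 level of these genes. The part of the 12 genes in the results below was not tested.

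In wild type the 28 genes differed between R50 and dark arrays 2 to 4 by -4.84 to -2.56 on the log2 scale, with a median of -2.998. That is 5.90-fold to 28.6-fold lower under R50. These are the values that chose the genes, so they are given as a description with no test. Over all probe sets, 27.5% passed an adjusted p of 0.05 in this contrast and 13.8% passed as lower, and nothing about the 28 genes is read from that share. The gene just inside the threshold was AT1G56660 at -2.56, next to AT1G75900 and AT4G13210 at -2.58, and the nearest genes outside were AT2G37670 at -2.499, AT4G39675 at -2.497, AT1G16850 and AT2G34700, both at -2.49, and chr31 at -2.46. There was no gap in the values at the threshold. The heatmap of all arrays shows the 2 wild-type R50 columns below the other 20 for most genes.

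**Figure D1:**
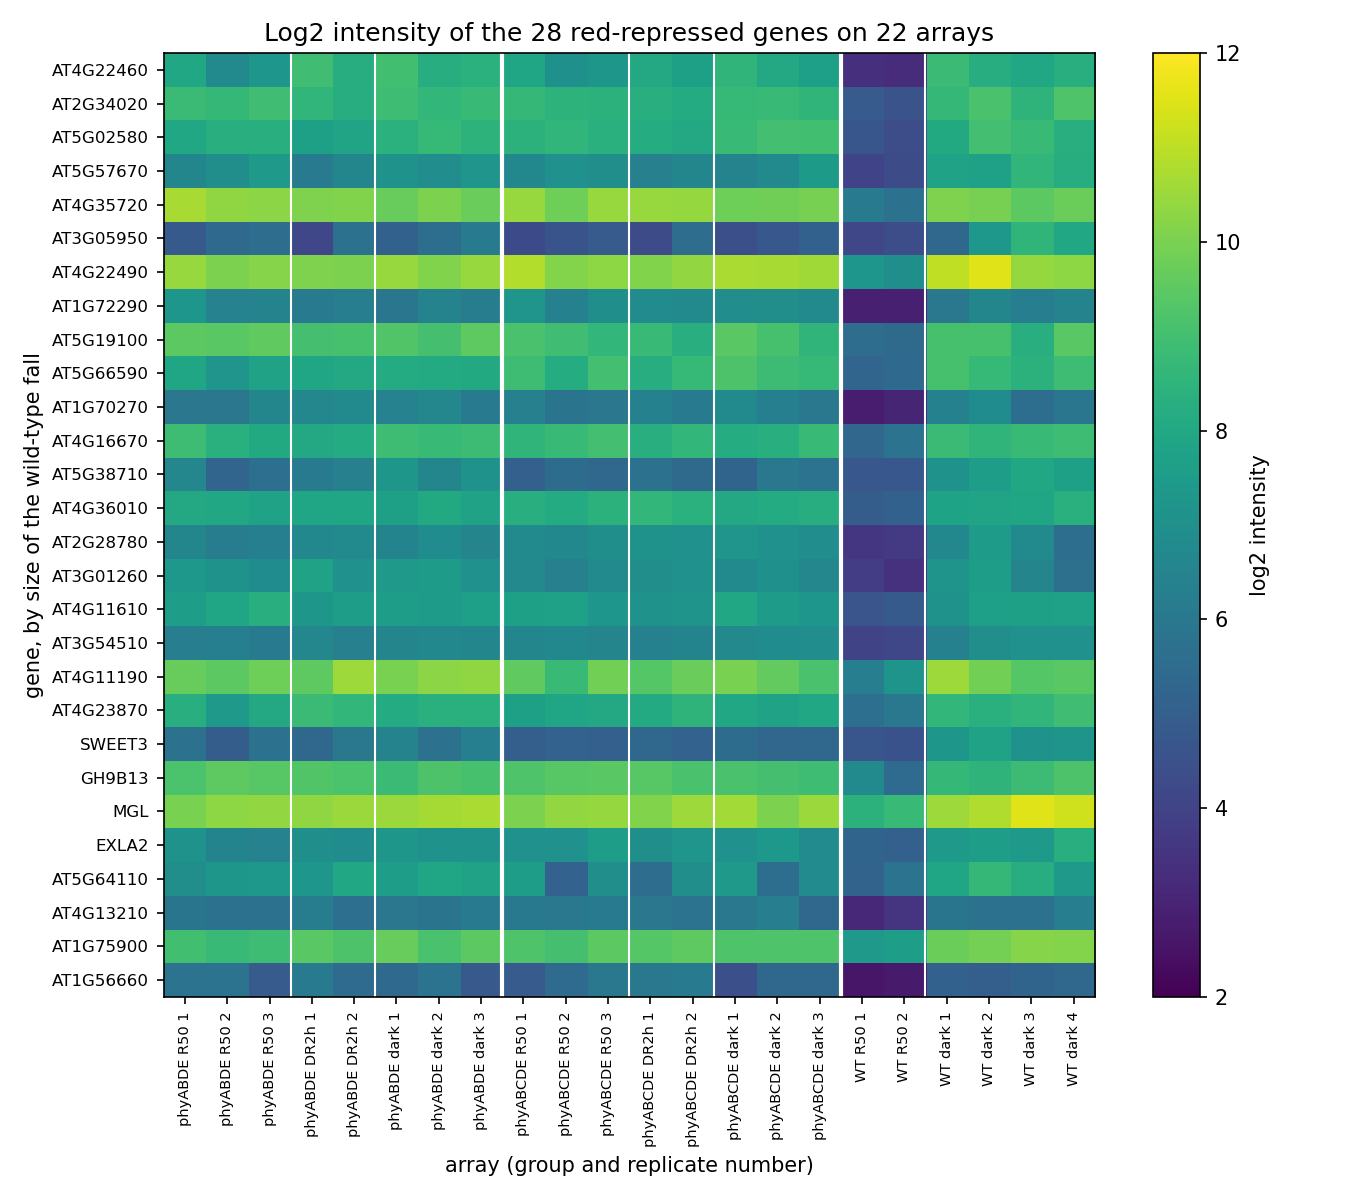
Log2 intensity of the 28 genes (rows, by size of the wild-type fall) on each of the 22 arrays (columns, by group). The wild-type R50 arrays are lower than every wild-type dark array for all 28 genes, and their median levels over the genes are 4.80 and 4.78, against 7.25 to 8.28 on the other arrays.

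The largest fall was that of AT4G22460. It read 3.37 and 3.27 log2 units on the wild-type R50 arrays, against 8.83, 8.24, 7.95 and 8.28 on wild-type dark arrays 1 to 4, a difference of -4.84 from dark arrays 2 to 4. AT2G34020 came next, with 4.89 and 4.58 under R50 and 8.65, 9.15, 8.49 and 9.25 in darkness, a difference of -4.23. In both genes the R50 and dark arrays were far apart. Dark array 1 lay above the other dark arrays for AT4G22460 and between them for AT2G34020.

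AT5G02580 read 4.68 and 4.37 under R50 and 8.06, 8.99, 8.74 and 8.30 in wild-type darkness, a difference of -4.15. AT5G57670 read 3.99 and 4.34 under R50 and 7.75, 7.73, 8.57 and 8.23 in darkness, a difference of -4.01. AT4G35720 read 6.17 and 5.77 under R50 and 10.05, 9.96, 9.46 and 9.77 in darkness, a difference of -3.76. All 3 genes kept a wide gap between the R50 and dark arrays.

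AT3G05950, the sixth by size, behaved otherwise on dark array 1. It read 4.11 and 4.36 under R50 and 7.34, 8.56 and 8.00 on dark arrays 2 to 4, a difference of -3.73, but only 5.39 on dark array 1. The fall was -1.16 when measured against dark array 1 alone, the smallest of the 28.

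SWEET3, the sugar transporter gene, had the largest fall among the genes with a symbol. It read 4.68 and 4.50 on the wild-type R50 arrays and 7.29, 7.78, 7.11 and 7.19 on the wild-type dark arrays, a difference of -2.77 from dark arrays 2 to 4 (6.82-fold lower). GH9B13 read 6.75 and 5.50 under R50 and 8.68, 8.49, 8.84 and 9.22 in darkness (6.62-fold lower), and its R50 arrays were the furthest apart of the 28. For both genes R50 lay below all 4 dark arrays.

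MGL and AT4G22490 had the brightest probe sets of the 28, although probe sets differ in how they respond and brightness does not rank transcripts. MGL read 8.42 and 8.75 under R50 and 10.55, 10.81, 11.53 and 11.26 in wild-type darkness (6.11-fold lower). EXLA2 read 5.23 and 5.07 under R50 and 7.41, 7.57, 7.40 and 8.27 in darkness (6.04-fold lower). AT4G22490 read 7.27 and 6.96 under R50 and 11.06, 11.52, 10.42 and 10.32 in darkness. In all 3 genes R50 lay below every dark array, whichever kit the dark array had.

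The dimmest probe sets of the 28 were those of AT1G56660 and AT3G05950. AT1G56660 read 2.60 and 2.71 on the wild-type R50 arrays and 5.11, 5.04, 5.23 and 5.37 on the wild-type dark arrays. Detection calls were not analysed here, so it is unknown whether signals this dim rose above background. The mean R50 levels of AT1G72290 (2.89), AT1G70270 (2.90) and AT4G22460 (3.32) are nearly as low. The size of a fall that ends there is uncertain, the 28.6-fold of AT4G22460 included, and with 16 intensity units added before log2, 13 of the 28 still met the rule.

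Near the threshold, AT4G13210 read 3.17 and 3.53 under R50 and 5.89, 5.75, 5.74 and 6.29 in wild-type darkness. AT1G75900 read 7.43 and 7.59 under R50 and 9.75, 9.93, 10.19 and 10.14 in darkness. Both genes kept their R50 and dark arrays apart by more than the spread within either group.

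Of the genes that the tests below turn on, AT5G66590 read 5.26 and 5.41 on the wild-type R50 arrays and 9.09, 8.72, 8.43 and 8.88 on the wild-type dark arrays, a difference of -3.34. AT5G38710 read 4.72 on both R50 arrays and 7.10, 7.61, 8.00 and 7.70 in darkness, a difference of -3.05. AT3G54510 read 4.06 and 4.13 under R50 and 6.39, 6.96, 7.06 and 7.04 in darkness, a difference of -2.93. In each of them dark array 1 lay well above the R50 arrays, as did the dark arrays of the other kit.

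The remaining genes had wild-type differences of -3.56 (AT1G72290), -3.45 (AT5G19100), -3.24 (AT1G70270), -3.18 (AT4G16670), -3.02 (AT4G36010), -2.98 (AT2G28780), -2.97 (AT3G01260), -2.95 (AT4G11610), -2.81 (AT4G11190), -2.79 (AT4G23870) and -2.58 (AT5G64110). The dark arrays of a few of them were far from uniform. AT2G28780 read 6.65, 7.49, 6.75 and 5.63 on wild-type dark arrays 1 to 4, and AT3G01260 read 7.16, 7.58, 6.55 and 5.67, so dark array 4 was the lowest for both. AT5G64110 varied most in phyABCDE, at 7.55, 5.15 and 6.94 under R50, against 7.42, 5.61 and 6.81 in darkness, with replicate 2 the lowest in each condition.

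Wild-type dark array 1 took no part in the choice of the genes and differs from the R50 arrays in labelling kit. All 28 genes were higher on it than on both R50 arrays, where 43.7% of all probe sets were. The R50 arrays chose the genes by being low, which favours this count. The fall of R50 from dark array 1 had a median of -2.90 over the 28 and ranged between -5.51 for AT4G22460 and -1.16 for AT3G05950, and 19 of the 28 still reached -2.5. Dark array 1 minus dark arrays 2 to 4 had a median of -0.13 over the 28 and 0.03 over all probe sets. The largest differences between dark array 1 and the other dark arrays were -2.57 for AT3G05950 and 0.97 for AT4G11190. The R50 side was used in the choice, so these values have no test.

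In the mutants the median level of the 28 genes stayed near that of dark wild type in every condition. That median on each array was 7.73, 7.25 and 7.56 in phyABDE under R50 and 7.68, 7.40 and 7.44 in phyABCDE under R50, against 4.80 and 4.78 in wild type under R50. It was 7.73 and 7.87 in phyABDE and 7.59 and 7.46 in phyABCDE after DR2h. In darkness it was 7.66, 8.01 and 7.76 in phyABDE and 7.95, 7.63 and 7.56 in phyABCDE, against 7.86, 8.04, 8.26 and 8.28 in wild type. For 26 of the 28 genes all 16 mutant arrays lay above both wild-type R50 arrays, where 14.9% of all probe sets did. The choice of the genes by their low wild-type R50 level favours this, and genotype and kit both differ between these arrays, so it is a description. The exceptions were AT3G05950 and AT5G64110, each with 3 mutant arrays at or below the higher wild-type R50 array.

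Whether red light still lowered these genes with phytochrome C alone or with no phytochrome was tested within each mutant, where all arrays share a kit and none took part in the choice. In phyABDE none of the 28 passed an adjusted p of 0.05 under R50 against darkness in limma's linear model, where 0.145% of all probe sets did. At an unadjusted p below 0.05 there were 11 of the 28, of which 9 were lower and 2 higher, while 11.6% of all probe sets were below it. The changes had a median of -0.29 over the 28, with 20 of them negative, against a median of 0.01 over all probe sets. In phyABCDE none of the 28 passed either, where 0.00879% of all probe sets did, and 4 of the 28 were below an unadjusted p of 0.05 (3 lower and 1 higher), as were 5.68% of all probe sets. The median there was -0.12 over the 28 and 0.01 over all probe sets.

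**Figure D2:**
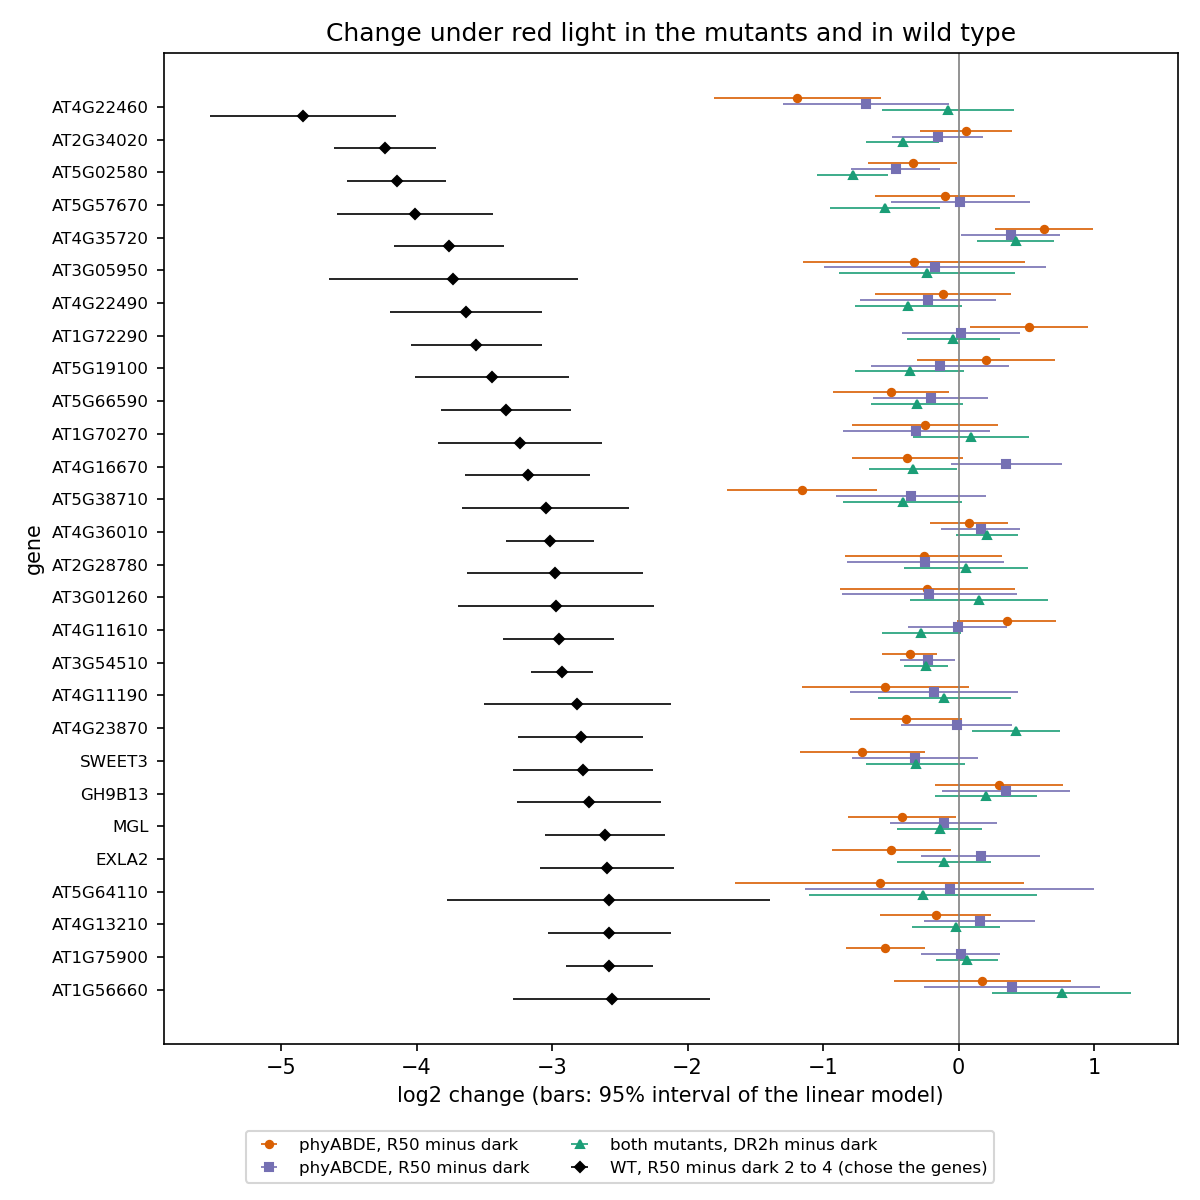
Log2 change of each of the 28 genes (rows) with its 95% interval: R50 minus dark in phyABDE, in phyABCDE and in wild type, and DR2h minus dark averaged over both mutants. The wild-type values, which chose the genes, lie at -2.56 or lower, and all mutant R50 values lie between -1.19 and 0.63.

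AT4G22460 had the largest change in the mutants as it did in wild type. In phyABDE it read 8.01, 6.75 and 7.24 under R50, against 8.96, 8.22 and 8.40 in darkness, a change of -1.19 ± 0.29 (SE, adjusted p = 0.101 by limma). In phyABCDE it read 7.90, 7.02 and 7.28 under R50, against 8.53, 8.05 and 7.65 in darkness, a change of -0.68 ± 0.29 (SE, adjusted p = 0.846 by limma). R50 lay below darkness on every array in phyABDE and overlapped with it in phyABCDE, and in neither mutant did it come near the wild-type R50 level.

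Averaged over both mutants, the R50 change of AT4G22460 was -0.94 ± 0.21 (SE, adjusted p = 0.0418 by limma), the single call among the 28, where 0.686% of all probe sets passed and 0.0923% passed as lower. The replicate number was also used as a block, on correlations of only 0.11 to 0.48 between dark and R50 arrays of the same number. With that block AT4G22460 was called in phyABDE alone (-1.19 ± 0.15, adjusted p = 0.00636 by limma). The averaged change was then -0.94 ± 0.11 (adjusted p = 0.00228 by limma), and AT5G38710 was called beside it (-0.75 ± 0.16, adjusted p = 0.0469). Without the block the call of AT4G22460 was lost in 9 of the 12 fits that left out 1 array. It was lost in 13 of 21 alternatives, among them those without a kit term, with only compared arrays and with only single-gene probe sets. With 16 intensity units added before log2, AT3G54510 was called in its place (-0.25, adjusted p = 0.0199 by limma). The averaged change of AT3G54510 was -0.29 in the main fit (adjusted p = 0.055 by limma).

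AT5G38710 read 6.61, 5.26 and 5.66 in phyABDE under R50, against 7.31, 6.60 and 7.09 in phyABDE darkness, a change of -1.15 ± 0.26 (SE, adjusted p = 0.079 by limma). It read 5.08, 5.53 and 5.36 in phyABCDE under R50, against 5.22, 6.00 and 5.81 in phyABCDE darkness. The R50 array of each replicate lay below its dark counterpart in both mutants, but the R50 and dark arrays of each mutant overlapped. The phyABDE change passed without R50 replicate 1 (-1.54, adjusted p = 0.0144 by limma).

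SWEET3 read 5.76, 4.95 and 5.72 in phyABDE under R50, against 6.47, 5.79 and 6.30 in phyABDE darkness, a change of -0.71 (adjusted p = 0.2 by limma). It read 5.01, 5.14 and 5.06 in phyABCDE under R50, against 5.53, 5.30 and 5.34 in phyABCDE darkness. R50 lay below darkness on every array in both mutants, by far less than in wild type. In darkness the sugar transporter gene also read lower on every array of both mutants than on any dark array of wild type.

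AT4G35720 had positive R50 changes in the mutants, against a negative one in wild type. It read 10.70, 10.34 and 10.27 in phyABDE under R50, against 9.67, 10.02 and 9.73 in phyABDE darkness, a change of 0.63 ± 0.17 (SE, adjusted p = 0.15 by limma). It read 10.45, 9.80 and 10.46 in phyABCDE under R50, against 9.80, 9.83 and 9.93 in phyABCDE darkness, and the change averaged over both mutants was 0.51 (adjusted p = 0.0652 by limma). The R50 and dark arrays did not overlap in phyABDE and did in phyABCDE, and the change passed in neither mutant. The averaged change passed without phyABCDE R50 replicate 2 (0.62, adjusted p = 0.0219 by limma) and with only the brighter probe sets (adjusted p = 0.0473).

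Of the enzyme and cell wall genes, none was called in either mutant. GH9B13 read 9.16, 9.50 and 9.41 in phyABDE under R50, against 8.83, 9.23 and 9.11 in phyABDE darkness, and 9.24, 9.41 and 9.46 in phyABCDE under R50, against 9.12, 9.05 and 8.90 in phyABCDE darkness. EXLA2 read 7.10, 6.51 and 6.44 in phyABDE under R50, against 7.28, 7.15 and 7.10 in phyABDE darkness, and 7.06, 7.07 and 7.59 in phyABCDE under R50, against 7.07, 7.35 and 6.82 in phyABCDE darkness. The endoglucanase gene was higher under R50 in each replicate of both mutants, and the expansin-like gene overlapped between the conditions in phyABCDE.

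MGL read 9.99, 10.30 and 10.37 in phyABDE under R50, against 10.51, 10.65 and 10.75 in phyABDE darkness, and 10.02, 10.39 and 10.43 in phyABCDE under R50, against 10.62, 10.04 and 10.51 in phyABCDE darkness. It was a little lower under R50 in phyABDE with no overlap, and the conditions overlapped in phyABCDE. AT1G75900 was also lower in phyABDE under R50 without overlap, at 8.98, 8.75 and 8.91 against 9.66, 9.12 and 9.48 in darkness (adjusted p = 0.122 by limma).

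The mutant levels of AT2G34020, the second largest fall in wild type, were 8.82, 8.68 and 8.94 in phyABDE under R50, against 8.89, 8.64 and 8.75 in phyABDE darkness. In phyABCDE they were 8.66, 8.47 and 8.44 under R50, against 8.71, 8.78 and 8.56 in darkness. The R50 changes were 0.05 ± 0.16 in phyABDE and -0.16 ± 0.16 in phyABCDE (SE), against -4.23 in wild type. R50 and darkness overlapped in both mutants.

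AT5G57670 likewise overlapped between R50 and darkness, at 6.57, 6.95 and 7.38 against 7.08, 6.90 and 7.21 in phyABDE and 6.68, 7.08 and 6.94 against 6.46, 6.73 and 7.46 in phyABCDE. AT4G22490 read 10.46, 10.02 and 10.18 under R50 against 10.44, 10.10 and 10.46 in darkness in phyABDE, and 10.86, 10.16 and 10.31 against 10.72, 10.71 and 10.58 in phyABCDE. AT4G13210 read 5.90, 5.75 and 5.72 against 5.95, 5.85 and 6.08 in phyABDE, and 6.03, 5.99 and 6.08 against 6.01, 6.27 and 5.36 in phyABCDE. R50 and darkness overlapped for all 3 genes in both mutants.

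AT3G05950 was low in the mutants in every condition. It read 4.83, 5.44 and 5.57 in phyABDE under R50, against 5.09, 5.61 and 6.13 in phyABDE darkness, and 4.26, 4.60 and 4.88 in phyABCDE under R50, against 4.45, 4.73 and 5.09 in phyABCDE darkness. The phyABDE levels lie on both sides of that of wild-type dark array 1 (5.39), which was labelled with the same kit. The phyABCDE R50 and dark levels lie below it. All these mutant levels lie below wild-type dark arrays 2 to 4. The kit and the sample cannot be told apart for this gene.

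Counted over replicate pairs, 6 of the 28 genes were lower under R50 in all 6 pairs of both mutants, where 3.39% of all probe sets were, namely AT4G22460, AT5G02580, AT3G05950, AT5G38710, AT3G54510 and SWEET3. GH9B13 and AT1G56660 were higher in all 6 pairs, where 5.30% of all probe sets were. The difference between the R50 changes of phyABDE and phyABCDE was tested as an interaction. None of the 28 passed, and no probe set did (0%), with 4 of the 28 and 899 of all probe sets below an unadjusted p of 0.05.

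**Figure D3:**
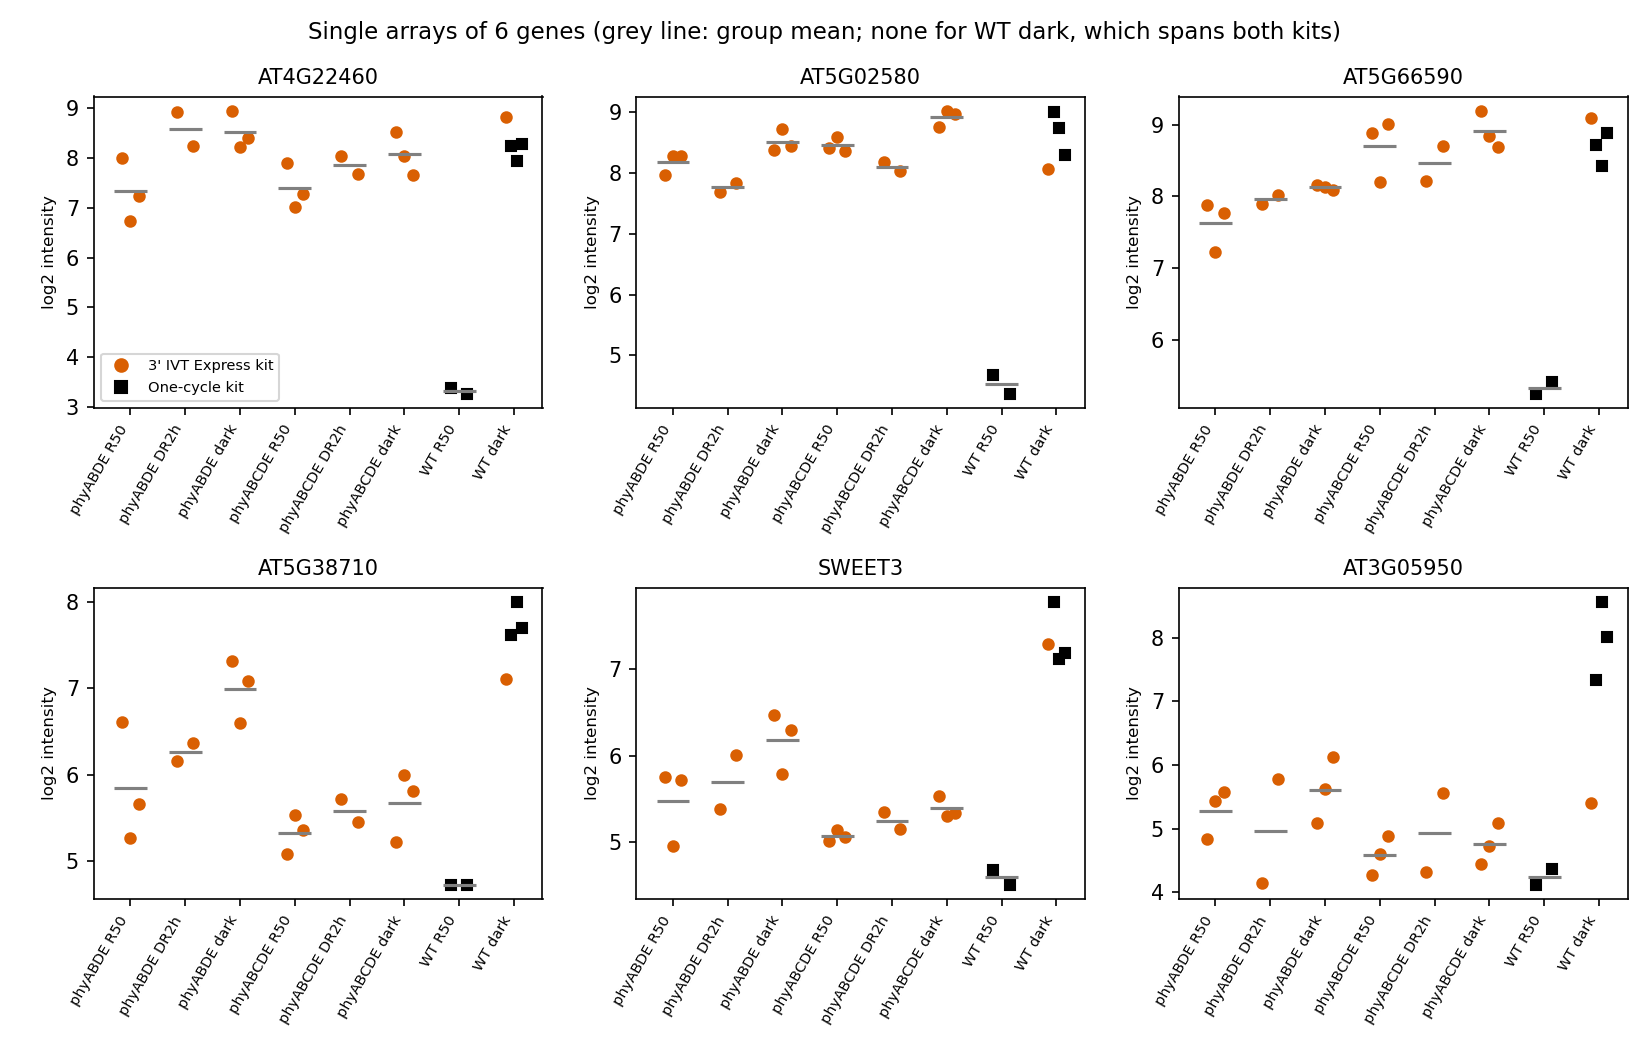
Log2 intensity on each array of AT4G22460, AT5G02580, AT5G66590, AT5G38710, SWEET3 and AT3G05950, by group, with the labelling kit shown by the marker. The wild-type R50 points lie between 3.27 and 5.41, and for AT3G05950 the mutant points and wild-type dark array 1 lie near them.

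The second question was whether 2 h of red light given to dark-grown seedlings lowered these genes in the mutants. The DR2h arrays were compared with the same dark arrays as the R50 arrays, so both sets of changes share them. None of the 28 passed in phyABDE, where 0.00440% of all probe sets did, and none in phyABCDE, where 0.0176% did. At an unadjusted p below 0.05 there were 4 of the 28 in phyABDE, all lower, and 6 in phyABCDE (3 lower and 3 higher), against 946 and 1413 of all probe sets. Wild type in this condition is not analysed here.

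AT5G02580 was the gene that passed when the DR2h change was averaged over both mutants. It read 7.69 and 7.83 in phyABDE after DR2h, against 8.38, 8.72 and 8.45 in phyABDE darkness. It read 8.17 and 8.04 in phyABCDE after DR2h, against 8.75, 9.02 and 8.98 in phyABCDE darkness. DR2h lay below darkness on every array of both mutants.

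The averaged change of AT5G02580 was -0.78 ± 0.12 (SE, adjusted p = 0.0177 by limma), where 0.0528% of all probe sets passed and 0.0176% passed as lower. The call was lost in 6 of 10 fits that left out 1 array, among them those without any one of the 4 DR2h arrays, and the change lay between -0.82 and -0.73 over all alternatives. Under R50 this gene read 7.97, 8.28 and 8.28 in phyABDE and 8.41, 8.59 and 8.35 in phyABCDE, and it was lower than darkness in all replicate pairs with an averaged change of -0.40 (adjusted p = 0.101 by limma).

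AT1G56660 had positive DR2h changes. It read 6.16 and 5.51 in phyABDE after DR2h, against 5.41, 5.80 and 4.78 in phyABDE darkness, and 6.00 and 6.14 in phyABCDE after DR2h, against 4.46, 5.37 and 5.35 in phyABCDE darkness. It was called higher in phyABCDE with the replicate number as a block (1.22 ± 0.21, adjusted p = 0.0389 by limma) and not without it. Within a mutant, pairing by replicate number was checked for dark and R50 arrays only, so the block is unchecked for DR2h. Its probe set was the dimmest of the 28.

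AT4G22460, with the largest R50 change in the mutants, read 8.93 and 8.24 in phyABDE after DR2h and 8.04 and 7.69 in phyABCDE after DR2h, within the range of the dark arrays in both. SWEET3 read 5.38 and 6.00 in phyABDE and 5.35 and 5.15 in phyABCDE after DR2h, and AT5G38710 read 6.16 and 6.37 in phyABDE and 5.71 and 5.45 in phyABCDE. The difference between the DR2h changes of the 2 mutants passed for none of the 28 and for no probe set (0%), with 1 of the 28 and 723 of all probe sets below an unadjusted p of 0.05.

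By their labels the mutants differ by phytochrome C, and comparing them within a condition keeps the kit the same. They also differ in the level of the 12 seed maturation genes. The median difference of phyABDE from phyABCDE over these 12 was -1.83 in darkness and -1.55 under R50. The part of either in the differences below was not tested. In darkness 2 of the 28 differed between phyABDE and phyABCDE, 1 higher and 1 lower in phyABDE, where 2.33% of all probe sets differed (0.980% higher and 1.35% lower). AT5G38710 was higher in phyABDE, at 7.31, 6.60 and 7.09 against 5.22, 6.00 and 5.81 in phyABCDE, a difference of 1.32 ± 0.26 (SE, adjusted p = 0.00891 by limma). AT5G66590 was lower in phyABDE, at 8.16, 8.13 and 8.09 against 9.19, 8.84 and 8.69 in phyABCDE, a difference of -0.78 ± 0.20 (SE, adjusted p = 0.0489 by limma).

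Neither gene overlapped between the mutants in darkness. The call of AT5G38710 was lost without dark replicate 1 of phyABDE or of phyABCDE, with differences between 1.09 and 1.52 over the alternatives, and the call of AT5G66590 was lost in 12 of 15 alternatives, the fits without any single dark array among them. Replicate 1 of phyABDE is the one with the low seed gene level, and without both its dark and R50 arrays AT5G38710 was still called (1.17, adjusted p = 0.00963 by limma). SWEET3 was also higher in phyABDE darkness, at 6.47, 5.79 and 6.30 against 5.53, 5.30 and 5.34 in phyABCDE, with an adjusted p of 0.0671 by limma.

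Under R50, 2 of the 28 were lower in phyABDE than in phyABCDE, where 3.97% of all probe sets differed and 2.28% were lower. AT5G66590 read 7.88, 7.23 and 7.77 in phyABDE, against 8.89, 8.20 and 9.01 in phyABCDE, a difference of -1.08 ± 0.20 (SE, adjusted p = 0.00478 by limma). The call held in every alternative, including those without any one array and without both phyABDE arrays of low seed gene level, with differences between -1.32 and -0.88. The arrays of the mutants did not overlap for this gene.

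AT3G54510 read 6.26, 6.30 and 6.15 in phyABDE under R50, against 6.57, 6.68 and 6.55 in phyABCDE, a difference of -0.36 ± 0.10 (SE, adjusted p = 0.0419 by limma). The arrays of the mutants did not overlap, but the call was lost in 11 of 15 alternatives, the fits without any one R50 array among them. After DR2h none of the 28 differed between the mutants, where 1.20% of all probe sets did, and 4 of the 28 were below an unadjusted p of 0.05, as were 11.4% of all probe sets. AT5G66590 read 7.89 and 8.03 in phyABDE and 8.22 and 8.70 in phyABCDE after DR2h.

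The dark levels of the mutants were set against wild type through a model with the kit as a term, so the wild-type side rests on dark array 1, the 1 wild-type array with the kit of the mutants and the 1 that did not choose the genes. Both comparisons share that array. A lone array has no spread of its own, so the differences from it are given without a test. No alternative leaves it out, so none checks how far it sets the values. In phyABDE none of the 28 differed from wild type, where 0.805% of all probe sets did, and 3 of the 28 were below an unadjusted p of 0.05, all lower, as were 11.8% of all probe sets in either direction. The lowest were SWEET3 at -1.10 ± 0.31 (SE, adjusted p = 0.121 by limma) and AT5G66590 at -0.96 (adjusted p = 0.149). The median difference over the 28 was 0.02.

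In phyABCDE 3 of the 28 passed against that 1 wild-type array in darkness, 2 lower and 1 higher, where 3.60% of all probe sets differed (1.70% lower and 1.90% higher). SWEET3 was lower, at 5.53, 5.30 and 5.34 in phyABCDE against 7.29 on wild-type dark array 1, a difference of -1.90 ± 0.31 (SE, adjusted p = 0.00138 by limma). The differences lay between -1.97 and -1.57 over the alternatives. The wild-type dark arrays of the other kit read 7.78, 7.11 and 7.19, near dark array 1.

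AT5G38710 was lower in phyABCDE darkness than in wild type, at 5.22, 6.00 and 5.81 against 7.10 on dark array 1, a difference of -1.43. AT5G02580 was higher, at 8.75, 9.02 and 8.98 against 8.06 on dark array 1, a difference of 0.85. Over the alternatives these differences lay between -1.93 and -1.19 for AT5G38710 and between 0.39 and 0.93 for AT5G02580. AT5G02580 read 8.99, 8.74 and 8.30 on wild-type dark arrays 2 to 4, so its phyABCDE arrays overlap with these, and the difference was 0.39 without the kit term.

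By mean dark level, SWEET3 and AT5G38710 were both highest in wild type, next in phyABDE and lowest in phyABCDE. For SWEET3 none of the 3 dark groups overlapped, and for AT5G38710 the phyABDE arrays overlapped with wild-type dark array 1. The levels of these genes also moved alike. Over all 22 arrays AT5G38710 was the named probe set most correlated with SWEET3 (Pearson's r = 0.927). Over the 16 mutant arrays the pair had the highest correlation of the 378 pairs among the 28 genes (r = 0.89). Next to SWEET3 over the 22 arrays came AT3G19390 (r = 0.910) and AT3G49210 (r = 0.909), which are not among the 28. The 22 arrays include the wild-type arrays that chose both genes for their fall in red light. That choice favours a high correlation between them over the 22 arrays. The 16 mutant arrays took no part in the choice. The arrays also share groups and kits, so all these correlations are descriptions.

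Pairs of the 28 genes varied in both directions across the mutant arrays. The median correlation over the 378 pairs on the 16 mutant arrays was 0.03, with values between -0.74 and 0.89. AT5G66590 with AT2G28780 (r = 0.82) and AT5G19100 with AT4G11610 (r = 0.79) followed the pair of SWEET3 and AT5G38710.

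On the chromosomes, 11 of the 28 genes lay on chromosome 4, which is 39.3% of them, against 14.6% of the named genes on the array. Chromosomes 1, 2, 3 and 5 held 5, 2, 3 and 7 of the 28. The 494 named genes that were at least 2-fold lower in wild type under R50 and separated from dark arrays 2 to 4 had 17.4% on chromosome 4. The genes AT4G22460 and AT4G22490, with the largest and the seventh largest fall, are close neighbours with 5 protein-coding genes between them. Of these 5 genes only AT4G22470 has a named probe set, and it was higher in wild type under R50, by 0.88 on the log2 scale. These shares were noticed among chosen genes and have no test.

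**Figure D4:**
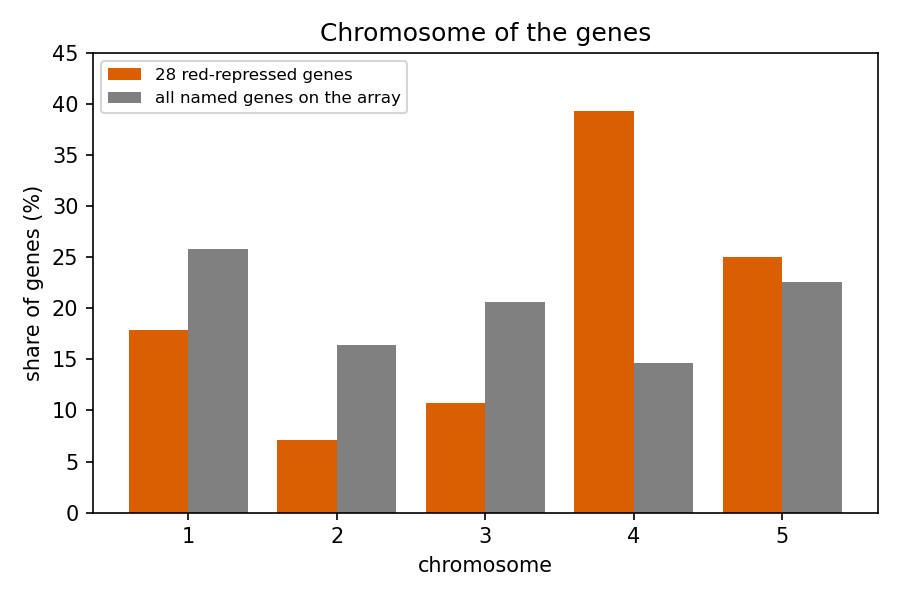
Share in percent of the 28 genes and of all named genes on the array that lie on each of chromosomes 1 to 5. Chromosome 4 holds 39.3% of the 28 genes and 14.6% of the named genes.

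The families of EXLA2 and GH9B13 show how these members compare with their relatives. Of 19 expansin and expansin-like genes measured, 7 were called lower and 3 higher in wild type under R50, where 13.8% of all probe sets were called lower and 27.5% either way. Their median was -0.07, against -0.02 over all probe sets. EXLA2 was the lowest, followed by EXPB1 (-2.06) and EXPA9 (-1.97), while EXPA7 (1.45) and EXPA18 (1.42), known from root hairs, were higher. None of the 19 was called in either mutant under R50, where 0.145% of all probe sets were in phyABDE and 0.00879% in phyABCDE. The medians of the 19 were -0.10 in phyABDE and 0.12 in phyABCDE.

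Of 15 family 9 endoglucanase genes measured, 6 were called lower and 1 higher in wild type under R50, beside the same 13.8% lower and 27.5% either way over all probe sets, and the median was -0.15. GH9B8 (-2.86), GH9B13 (-2.73) and GH9C2 (-2.11) were the lowest, and GH9C1 (1.73) was the 1 called higher. None of the 15 was called in either mutant under R50, beside the same 0.145% in phyABDE and 0.00879% in phyABCDE over all probe sets. Of the 23 shade and PIF target genes listed, only 4 had a named probe set. These 4 were WES1, HAT2, FHL and IAA29, the last of which met the rule that chose the 28. All 4 were called lower in wild type under R50, where 13.8% of all probe sets were. None was called in phyABDE or phyABCDE under R50, where 0.145% and 0.00879% of all probe sets were. At an unadjusted p below 0.05 there were 3 of the 4 in phyABDE and 1 in phyABCDE, against 11.6% and 5.68% of all probe sets. For DR2h averaged over both mutants, 1 of the 4 was called lower, where 0.0176% of all probe sets were. These lists were chosen with earlier results of the data known, and the wild-type counts include genes picked for their fall.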

How the data were processed

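Total RNA of whole seedlings was hybridised to 22 Affymetrix arrays. The deposited values are intensity units on a linear scale, summarised by the authors per probe set. Per the submitters' processing notes, RMA, GCOS and limma were used, and their versions are not given in the sources used here. Detection calls were not analysed here. Precision is limited by how many arrays each group has. The kit of each array was taken from the series text; the sample labels name the 3' IVT Express kit for all 22 arrays.

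Here the intensities were turned to log2, 64 control probe sets were left out, and 22746 probe sets were fitted in limma 3.58.1 (R 4.3.3) with a term for each of the 8 groups and one for the kit, which left 13 residual degrees of freedom. Benjamini-Hochberg adjustment ran over all probe sets, and a probe set is called at an adjusted p below 0.05. Fold changes are 2 to the power of log2 differences. The fit was tested on simulated data. Gene names came from the platform's annotation, and 13436 of the 13513 single-gene probe sets matched a RefSeq gene of TAIR10.1. Figures were drawn with matplotlib 3.10.9.

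The genes and lists were chosen with earlier results of these data known. Genes given array by array were the 6 largest falls, those called in a comparison and those with a symbol. The 2 highest and 2 lowest in level and the 3 just inside the threshold were also given. Their wild-type values are given on all arrays, and their mutant values in some conditions only. Dark and R50 arrays of the same number had positive correlations in each mutant (r = 0.48, 0.18 and 0.11 in phyABDE, and 0.33, 0.12 and 0.25 in phyABCDE). Most of these are weak, and the numbers were taken as pairs within a genotype on that basis. The DR2h arrays were not checked in this way. Promoter and protein sequences were not analysed here.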

Additional observations from a re-analysis of the deposited data

Results flagged for a closer look

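For AT4G11610 the lowest of the 4 wild-type dark arrays was far from the others. It read 7.12 on dark array 1, against 7.64, 7.67 and 7.74 on dark arrays 2 to 4, and the gap to the nearest array was 0.8472 of the whole range. For AT3G54510 the same array was lowest, at 6.39 against 6.96, 7.06 and 7.04, with a gap of 0.8474 of the range. Chance flags about 1 in 20 groups, and 2 of the 28 genes were flagged. Dark array 1 was labelled with another kit than dark arrays 2 to 4, and the part of the kit in these values cannot be told apart from that of the sample.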

How the results depend on the processing

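No direction was reversed in any alternative, and 213 of 214 recomputed medians moved by less than the spread between replicates. The exception was the wild-type R50 median with 16 intensity units added before log2 (-2.48 against -2.998). With that offset 13 of the 28 genes still met the rule, with quantile normalization 28, and with dark array 1 in place of 2 to 4, chosen after seeing the data, 19.

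Counts of genes called, out of 28, were as follows. For phyABDE R50 against dark (0), the replicate block gave 1, array weights 2 and leaving out 1 array 0 to 2, with 2 without phyABDE R50 replicate 1. Leaving out both phyABDE arrays of low seed gene level, chosen after seeing the data, gave 1 there and 2 for both mutants. For R50 in both mutants (1), the fit without a kit term, with only the compared arrays and with only single-gene probe sets gave 0 each, the replicate block, quantile normalization and array weights 2 each, brighter probe sets 3 and leaving out 1 array 0 to 2. For phyABCDE DR2h (0), the replicate block and array weights gave 1 each. For DR2h in both mutants (1), the fit without a kit term gave 0 and leaving out 1 array 0 to 1. For phyABDE against phyABCDE in darkness (2), the fits without a kit term, with the replicate block across genotypes, the offset, single-gene probe sets, array weights and without the low seed arrays gave 1 each, and leaving out 1 array 0 to 2. Under R50 (2), the fits without a kit term, with the compared arrays, the block, quantile normalization and without the low seed arrays gave 1 each, as did leaving out any 1 array. After DR2h (0), array weights gave 1. Against wild type in darkness calls are not counted, because the wild-type side of the main fit is 1 array. The fit without a kit term, which brings in the dark arrays that chose the genes, gave 5 in phyABDE and 9 in phyABCDE. Replicate numbers did not pair the genotypes (r between -0.16 and 0.06). Other comparisons kept 0 calls, and the cause of the moves was not tested. Leaving out wild-type dark array 1 gives no value for the comparisons with wild type.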
